A study of Mus musculus with 6 samples.

Results

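The genes described here are the 4 Id genes of the mouse (Id1, Id2, Id3 and Id4), the BMP receptor genes Bmpr1a and Bmpr2, and the inhibitory Smad genes Smad6 and Smad7. They were taken by gene symbol, and all 8 are among the 16701 genes of the authors' deposited table. That table compares polyadenylated RNA of luminal epithelial cells of the mammary gland, the cells that line ducts and make milk, between Ocln-/- mice (labelled Ocln knockout, 3 libraries) and control mice (labelled WT, 3 libraries), all at 7 weeks of age. Ocln encodes occludin, which spans the membrane at the tight junctions that seal epithelia. The sources used here do not give the allele or Cre that removed Ocln, the strain background, how the luminal cells were isolated or whether libraries came from separate mice. The test then measures only how far these libraries differ, which may be partly technical. Values per library were not used here, so each gene has a mean level over the 6 libraries, a log2 fold change of Ocln knockout over control and a standard error (SE), and the overlap of the libraries and the depth of each are unknown.

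BMPs are secreted ligands of the TGF-beta superfamily. They bind a type II receptor such as BMPR2 together with a type I receptor such as BMPR1A, which phosphorylates SMAD1, SMAD5 and SMAD9, and these enter the nucleus with SMAD4. Id genes are among the best known direct targets of that complex. Their products are helix-loop-helix proteins without a DNA-binding region, which bind E proteins and so keep them from pairing with tissue-restricted bHLH factors on DNA. Smad6 and Smad7 are induced by the same signals and feed back on the receptors, SMAD6 mainly on the BMP branch and SMAD7 on the BMP and TGF-beta branches. In the mammary gland, Id2 is known from mouse knockouts as a gene needed for lobuloalveolar development, and ID4 as a regulator of basal stem cells and of ductal growth.

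BMP SMADs are known to bind GC-rich elements, among them GGCGCC and GGAGCC, and both were searched on both strands in the 250 bases before the annotated start of each member. RefSeq's promoter table on GRCm38.p6 matched 6 of the 8 members, and Id1 and Smad7 are not shown. Each match is given below with its surroundings, 30 bases in all and read on the strand of the gene, because Id3 was the member that fell and its window can be set beside those of its relatives. Capitals mark the motif, and in Id3 they show GGAGCC read on the opposite strand.
Id3, chr4:136143623-136143652, plus strand: cctcgcatccgaGGCTCCgctgtcctcggc
Id2, chr12:25096306-25096335, minus strand: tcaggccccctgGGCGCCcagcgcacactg
Id2, chr12:25096163-25096192, minus strand: gtatgatggacgGGAGCCcttccaccaatg
Id4, chr13:48260956-48260985, plus strand: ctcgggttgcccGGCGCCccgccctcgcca
Id4, chr13:48261086-48261115, plus strand: acaaatactgctgtgccGGAGCCgagcgac
Smad6, chr9:64022144-64022173, minus strand: accagccccctcGGAGCCtcgggctcagca
Smad6, chr9:64022060-64022089, minus strand: aatcagcgccgcGGAGCCgccaaagtgtct
Bmpr1a, chr14:34502727-34502756, minus strand: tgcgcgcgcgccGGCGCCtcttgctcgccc
Bmpr2, chr1:59764162-59764191, plus strand: ctccggcggccgGGCGCCgctgcctgcccc

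GGCGCC stood in the windows of Id2, Id4, Bmpr1a and Bmpr2, against 9.59 percent of all 32851 promoter windows of that length. GGAGCC stood in those of Id2, Id3, Id4 and Smad6, against 26.0 percent of all windows. The members' windows held 62.8 to 78.8 percent G and C, against a median of 52.4 percent over all windows, and a GC-rich motif is met more often in GC-rich sequence. The Id3 window held no GGCGCC, and its single GGAGCC match began 187 bases before the start used by RefSeq. GENCODE M21 places exons in several of these windows, covering all 250 bases for Id3 and Bmpr2, 161 for Id2, 141 for Bmpr1a and 0 for Id4 and Smad6. For the first 4 of these genes and for Id4 the distance to the start depends on the annotation. The GENCODE M21 start of Id4, at 48261228, does not follow directly on the end of its window at 48261115. A match is a description of the letters and not evidence of binding.

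Of the 8 members, Id3 fell in the Ocln knockout and 0 rose. The authors' deposited table gives Id3 1663 normalized counts on average and a log2 fold change of -0.97 with an SE of 0.20 (adjusted p by DESeq2 = 0.000336). Its level in the knockout was 51.0 percent of that in control, with a 95 percent interval of 39.0 to 66.7 percent. A call of 1 gene lower stands against 0.275 percent of all listed genes called lower and 0.808 percent called higher at an adjusted p under 0.05. Among the 46 genes called lower, Id3 ranked 9 by p and 35 by the size of its log2 fold change, and it ranked 42 by p among all genes. Its change is therefore among the better supported but not the larger of the falls. For comparison, the deleted gene Ocln was at 44.9 percent of control, a log2 fold change of -1.15 with a 95 percent interval of -1.48 to -0.83. Why RNA of Ocln remained was not tested, so its value is no scale for a full loss. The authors' own call for Id3 was Stable, because their rule asks for a change of more than 1.01 in size on the log2 scale, which is 2 SD above the average size over all genes. By that rule 0 of the members were called, against 2.79 percent of all genes. Id3 lies on the plus strand of chromosome 4 from 136143497 to 136145755 (GRCm38, GENCODE M21), no other annotated gene overlaps it, and 0 of the 1741 words of 50 bases in its transcripts occur in transcripts of another gene.

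The other Id genes had smaller negative values that did not pass. Id1, the family member most often used as a readout of BMP signalling, had a log2 fold change of -0.25 ± 0.31 (SE) in the authors' deposited table (DESeq2 adjusted p = 0.916), which is 84.1 percent of control with a 95 percent interval of 55.3 to 128.0 percent. Id2 had -0.24 ± 0.23 in the authors' deposited table (DESeq2 adjusted p = 0.866), or 84.9 percent of control with an interval of 62.0 to 116.2 percent. The values of Id1 and Id2 were thus alike in size, and both intervals reach into the interval of Id3. Id4 had -0.06 ± 0.42 in the authors' deposited table (DESeq2 adjusted p = 0.991), or 96.1 percent of control with an interval of 54.4 to 169.9 percent. That interval is the widest of the 8. Like those of Id1 and Id2, it reaches into the interval of Id3 but leaves out the 51.0 percent of Id3 itself. Whether Id3 differed from the other Id genes was not tested, since the fold changes come from the same libraries and their covariance is unknown.

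The receptor genes were measured more precisely. Bmpr1a, which encodes the type I receptor ALK3, had a log2 fold change of -0.20 ± 0.16 (SE) in the authors' deposited table (DESeq2 adjusted p = 0.819), or 87.3 percent of control with a 95 percent interval of 70.0 to 108.9 percent. Bmpr2, which encodes the type II receptor, had -0.0039 ± 0.19 in the authors' deposited table (DESeq2 adjusted p = 0.996), or 99.7 percent of control with an interval of 77.1 to 129.0 percent. Both intervals leave out a level as low as the 51.0 percent of Id3, and so do those of the other members. The interval of Id3 itself reaches up to 66.7 percent. An antisense gene, Gm17110, shares 4.80 percent of the exon bases of Bmpr1a, and strand use in the counting is not given.

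The feedback genes did not pass either. Smad7 had a log2 fold change of -0.16 ± 0.15 (SE) in the authors' deposited table (DESeq2 adjusted p = 0.867), or 89.8 percent of control with a 95 percent interval of 73.0 to 110.5 percent. Smad6, the inhibitor more selective for BMP receptors, had -0.02 ± 0.31 in the authors' deposited table (DESeq2 adjusted p = 0.994), or 98.8 percent of control with an interval of 65.3 to 149.6 percent. The SE of Smad7 was the lowest of the 8 members and lower than that of 91.8 percent of the 500 genes nearest in mean level, whereas the SE of Id2 and Smad6 exceeded that of 88.4 and 82.4 percent of such genes.

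**Figure D1:**
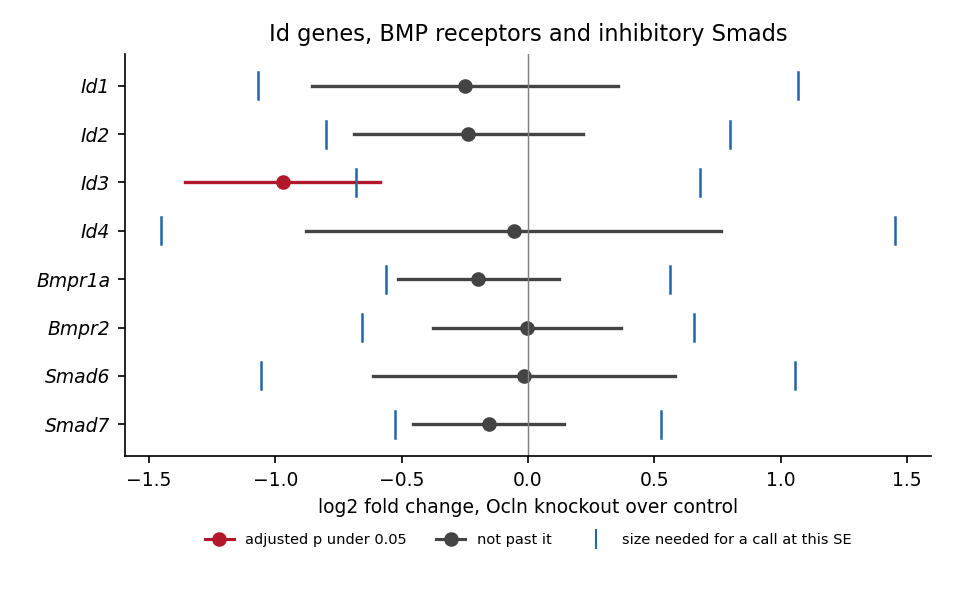
Log2 fold change of Ocln knockout over control for the 8 members (points) with 95 percent intervals (1.96 SE on either side, lines), and the size that each gene would have needed for an adjusted p under 0.05 at its SE (blue ticks). Id3, in red at -0.97, lies beyond its tick and its interval leaves out 0, while the other 7 intervals hold 0.

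In all, 8 of 8 members had a negative log2 fold change and 0 a positive value, against 51.2 percent negative and 48.8 percent positive among all genes, although Bmpr2 turned positive when the median of all genes was taken off and Smad6 when the trend with exonic length was taken off. Their median was -0.18, against -0.01 over all genes. Apart from Id3, the lowest unadjusted DESeq2 p in the authors' deposited table was 0.228, for Bmpr1a, so 1 of 8 members had an unadjusted p under 0.05, against 9.07 percent of all genes. At the SE of each gene, a call needed an absolute log2 fold change of 0.53 for Smad7, 0.56 for Bmpr1a, 0.66 for Bmpr2, 0.68 for Id3 and 0.80 for Id2. It needed 1.06 for Smad6, 1.07 for Id1 and 1.45 for Id4. A change of the size seen in Id3 could therefore have been called in Smad7, Bmpr1a, Bmpr2 and Id2 but not in Smad6, Id1 or Id4.

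**Figure D2:**
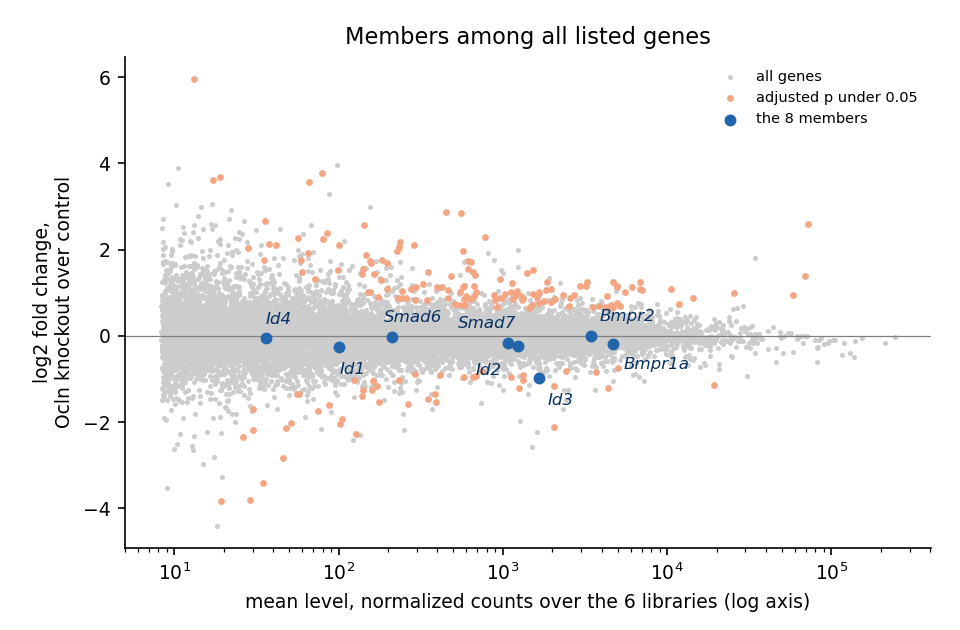
Log2 fold change of Ocln knockout over control against mean level in normalized counts (log axis) for all 16701 genes (grey), the 181 genes with an adjusted p under 0.05 (orange) and the 8 members (blue). Id3, at 1663 normalized counts, stands at the lower edge of genes of its level, and Id4, Id1 and Smad6 lie at levels where the grey cloud is broader.

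The members differed widely in level. Per kilobase of annotated exon, Id3 had the highest mean level of the 8, with 1301 normalized counts per kilobase, at percentile 92.5 of the 16225 genes with a known length. Bmpr1a followed at 777 normalized counts per kilobase and Id2 at 505. Bmpr2 had 267 and Smad7 245 normalized counts per kilobase. Id1 stood at 87.3 and Smad6 at 71.1 normalized counts per kilobase, and Id4 was lowest at 9.38, at percentile 10.7. These are levels over both genotypes. Their spread over libraries is unknown, so it cannot be said which neighbours in this order differ, and the annotation used for counting may differ from GENCODE M21. Id4 and Ocln lie on the same chromosome, 13, and are 52.2 Mb apart.

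Beyond the members, 127 genes of the BMP and TGF-beta pathways, the E proteins and other bHLH factors were followed in 9 lists. The table lists 83 of them. By the authors' DESeq2 test 0 passed at an adjusted p under 0.05, against 1.08 percent of all genes. An unadjusted p under 0.05 was reached by 9 of the 83 with higher and 5 of the 83 with lower levels. Both are larger shares than the 5.23 and 3.83 percent of all genes. The lists were chosen with earlier results of these data known, and whether the shares differ was not tested. Their median log2 fold change was 0.03, with 43 positive and 40 negative. The lowest adjusted p was 0.0832, for Dlx5.

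Of 14 BMP ligand genes, 7 are listed, with a median log2 fold change of 0.29, and their levels were low. Bmp2, with 36.7 normalized counts, had 1.11 ± 0.45 (SE) in the authors' deposited table (unadjusted DESeq2 p = 0.0141, adjusted p = 0.344). Bmp3, the ligand gene with the highest level (172 normalized counts), had 0.09 ± 0.44 in the authors' deposited table. Bmp4, named for its role after its value had been seen, had -0.24 ± 0.42 at 34.6 normalized counts in the authors' deposited table. None of the listed ligand genes passed the test in either direction.

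Among 9 listed genes of other BMP receptors and co-receptors, 0 had an unadjusted p under 0.05 by DESeq2, and the median was -0.01. The type I receptor gene Acvr1 (-0.20 ± 0.17 SE) and Eng, a co-receptor gene of endothelial cells (-0.50 ± 0.31), had the highest levels in the authors' deposited table. Of the SMADs that carry the signal, 3 of 4 genes are listed and all had positive values that did not pass, with a median of 0.16. In the authors' deposited table these were Smad5 at 0.16 ± 0.17, the common partner Smad4 at 0.26 ± 0.16, and Smad1 at 0.13 ± 0.20, the last of them named after its value had been seen. Their signs were opposite to that of Id3.

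The extracellular antagonists and modulators of BMPs had values on both sides of 0. Of 14 listed, with a median of -0.16, an unadjusted p under 0.05 was reached by 2 with higher and 2 with lower levels. Bmper, a BMP-binding endothelial regulator, had -1.69 ± 0.54 (SE) and only 42.2 normalized counts in the authors' deposited table (adjusted p = 0.103). Nbl1, an antagonist of the DAN family, had -1.42 ± 0.53 in the authors' deposited table (adjusted p = 0.236). Crim1, a membrane protein that binds BMPs, had 0.59 ± 0.19 in the authors' deposited table (adjusted p = 0.120), and the follistatin relative Fstl3 had 0.67 ± 0.34 (adjusted p = 0.538). The highest levels were those of Twsg1 (-0.11 ± 0.14) and the procollagen protease gene Bmp1 (-0.35 ± 0.20) in the authors' deposited table.

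Of 12 intracellular regulators, all listed, 10 had a positive and 2 a negative value, with a median of 0.14, and 1 had an unadjusted p under 0.05. That was Smurf1, a ubiquitin ligase for SMAD1 and SMAD5, at 0.36 ± 0.15 (SE) in the authors' deposited table (adjusted p = 0.381). Skil, a SMAD corepressor gene (0.32 ± 0.18), and Tob1 (-0.24 ± 0.17), an antiproliferative gene, had the highest levels in the authors' deposited table. Among 8 listed genes that BMPs induce in other settings, such as bone and limb, values went both ways around a median of 0.04. Msx2 had -0.62 ± 0.30 in the authors' deposited table (unadjusted DESeq2 p = 0.0368), while Runx2 (0.63 ± 0.28) and Dlx5 (1.61 ± 0.50, adjusted p = 0.0832) had positive values. Tbx3 (-0.48 ± 0.26) and Hey1 (-0.45 ± 0.60) had the highest levels in the authors' deposited table. Of these target genes, 0 passed an adjusted p of 0.05.

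In the TGF-beta and activin branch, which uses SMAD2 and SMAD3 and shares SMAD4 and SMAD7, 12 of 15 listed genes had negative values, with a median of -0.09. At an unadjusted p under 0.05 were Tgfbr2, the type II receptor gene (-0.65 ± 0.30 SE), Tgfbr3, the betaglycan gene (-0.34 ± 0.17), and the matrix protein gene Tgfbi (0.77 ± 0.33) in the authors' deposited table. Their adjusted p-values were 0.482, 0.523 and 0.418. Inhbb, an activin subunit gene with the highest level on the list, had -0.43 ± 0.23 in the authors' deposited table.

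**Figure D3:**
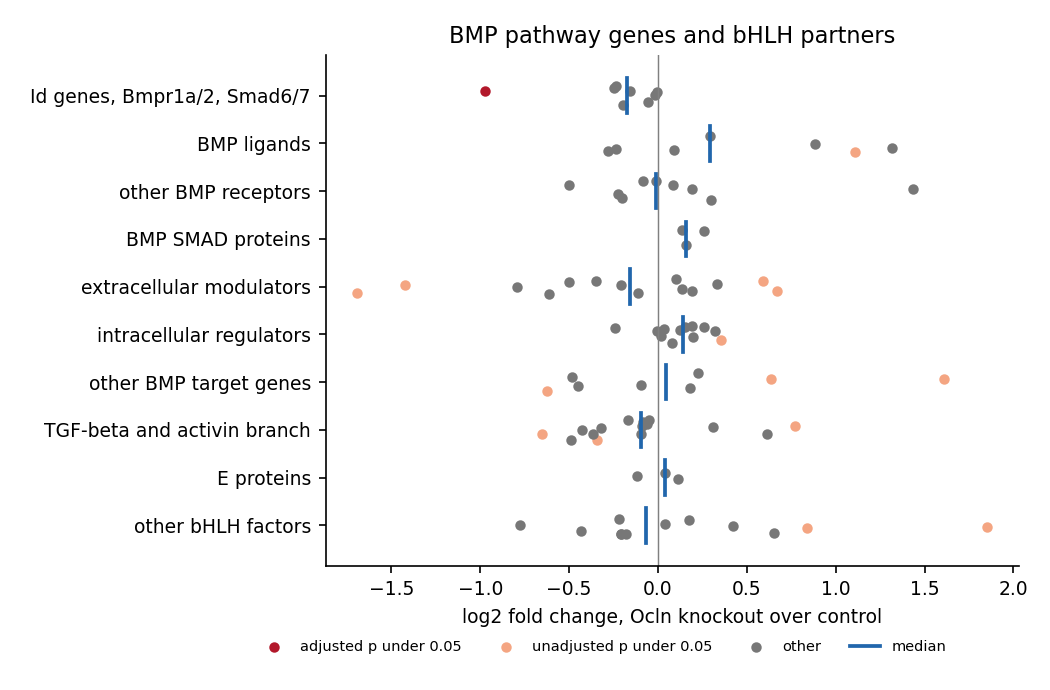
Log2 fold change of Ocln knockout over control for each listed gene of the 8 members and of the 9 lists of pathway and partner genes, 1 point a gene, with the median of each list (blue line). The red point is Id3, orange points have an unadjusted p under 0.05 only, and no gene of the 9 lists passes an adjusted p of 0.05.

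The E proteins, the direct binding partners of Id proteins, lay close to 0. Of 3 genes, all listed, 0 had an unadjusted p under 0.05 by DESeq2, with Tcf12 at 0.04 ± 0.15 (SE) and Tcf3 at 0.11 ± 0.19 in the authors' deposited table. Of 36 other bHLH genes, tissue-restricted or of the Hes type, 12 are listed, with a median of -0.07. Not all of these are known as factors that Id proteins hold off DNA. The Notch target Heyl had 1.85 ± 0.61 at 57.5 normalized counts in the authors' deposited table (adjusted p = 0.123), and the tendon regulator Scx had 0.84 ± 0.35 at 60.7 normalized counts (adjusted p = 0.375). The highest levels were those of Bhlhe40 (-0.43 ± 0.23) and Hes1 (0.04 ± 0.15) in the authors' deposited table.

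The label of the cells was checked against markers. All 12 luminal markers are listed, with a summed mean level of 415506 normalized counts and 0 called, and Krt18 (-0.10 ± 0.15 SE) and Krt8 (-0.06 ± 0.14) led them in the authors' deposited table. The luminal log2 fold changes ran from -0.69 to 0.51 around a median of -0.03, with 6 positive and 6 negative. A median near 0 does not show that each marker was unchanged. An unadjusted DESeq2 p under 0.05 was reached by 1 of the 12 with a higher and 1 with a lower level. These were Elf5 (0.51 ± 0.17) and Krt19 (-0.36 ± 0.18), named after their values had been seen. The shares among all genes were 5.23 and 3.83 percent, and 1.08 percent of all genes were called. Whether the mix of luminal cells differed between the genotypes was not tested. Id3 is expressed in endothelial, stromal and myoepithelial cells too, and fewer cells of a type cannot be told apart from less RNA per cell in these bulk samples. Endothelial markers were detected, 12 of 12, with a summed mean level of 4045 normalized counts and a median log2 fold change of 0.03. By DESeq2, 0 of them had a p under 0.05 before or after adjustment, against 9.07 and 1.08 percent of all genes. With 12 genes, a count of 0 lies near these shares and does not show that the endothelial part was unchanged. Vwf (0.22 ± 0.20) and Pecam1 (0.04 ± 0.21) were the highest of them in the authors' deposited table. Their log2 fold changes ran from -0.22 to 0.42.

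Among markers of other cells, 2 genes fell as Id3 did. Of 9 listed fibroblast markers, Dcn, the decorin gene, fell in the authors' deposited table (-1.36 ± 0.35 SE, DESeq2 adjusted p = 0.0134), while Col3a1 had 0.25 ± 0.34, and the list had a summed mean level of 1500 normalized counts and a median of 0.01. Of 10 basal and myoepithelial markers, the oxytocin receptor gene Oxtr fell (-1.55 ± 0.38 in the authors' deposited table, DESeq2 adjusted p = 0.00733), while Acta2 had -0.16 ± 0.28. The list had a sum of 2323 normalized counts and a median of -0.15, with 3 positive and 7 negative values. Its other gene with an unadjusted DESeq2 p under 0.05, Krt17, had a positive value (0.86 ± 0.42) and was named after that value had been seen. Of 6 listed pericyte markers 0 were called, with a median of -0.23 and a sum of 7258 normalized counts, nearly all of it Notch3 (0.16 ± 0.14 in the authors' deposited table), which luminal cells express too, while Rgs5 had -0.36 ± 0.37. All 8 listed leukocyte markers had positive values, with a median of 0.89, a sum of 5438 normalized counts and 0 called, led by Cd74 (0.81 ± 0.66) and Lyz2 (0.97 ± 0.29) in the authors' deposited table. Of 6 adipocyte markers 2 are listed, Fabp4 (-0.14 ± 0.28) and Pparg (-1.05 ± 0.56) in the authors' deposited table, with a sum of 515 normalized counts, a median of -0.60 and 0 called. Among all genes, 0.275 percent were called lower and 1.08 percent in either direction, so a count of 0 in such short lists lies near that share. What part these other cells have in the value of Id3 was not tested, and sums for each genotype were not analysed here.

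**Figure D4:**
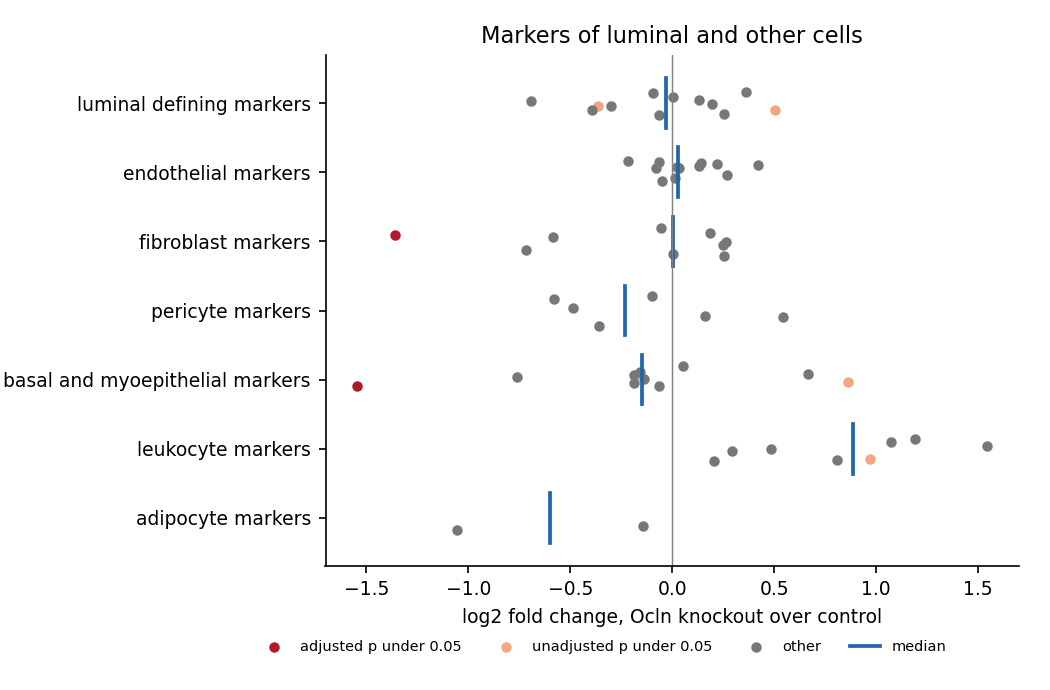
Log2 fold change of Ocln knockout over control for listed markers of luminal cells and of 6 other cell types, 1 point a gene, with the median of each list (blue line). Endothelial markers lie around their median of 0.03, the red points are Dcn at -1.36 and Oxtr at -1.55, and all leukocyte markers lie above 0.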

How the data were processed

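The sources used here give RNA-seq of 6 libraries, and the file analysed is the authors' deposited table of 1 comparison, named knockout over control. Per the submitters' processing notes, DESeq2 (version not given) and mm10 were used, while the sources used here name no aligner, counter, annotation or model. The columns of the authors' table are, per the file headers, a mean level per gene (a signal in normalized counts), a log2 fold change with its SE, a Wald score, a p-value before and after adjustment, and the authors' call as another kind of value. No count model was refitted. A member was called at the authors' DESeq2 adjusted p under 0.05 over all 16701 genes, with 95 percent intervals of 1.96 SE, which are not adjusted for the number of genes. The deposited adjusted p-values differed from a Benjamini-Hochberg adjustment by at most 0.512 percent. The lowest listed mean level was 8.35, and genes below it were not analysed here. Exon lengths, overlaps and 50-base words came from GENCODE M21 (GRCm38) and promoters from RefSeq (GRCm38.p6). Python 3.11.15, pandas 2.3.3 and scipy 1.17.1 were used, and the adjustment was tested on simulated data.

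The members and lists were chosen with earlier results of these data known. Genes named are all members, list genes with an adjusted or unadjusted p under 0.05 (markers: adjusted) and the 2 with the highest mean level in each list. Alternatives were a stricter threshold, a size threshold, filters on level, the authors' call, scores divided by the root of their inflation, fold changes less the median, a Bonferroni adjustment and, chosen after seeing the data, scores less their median in 20 bins of exonic length.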

Additional observations from a re-analysis of the deposited data

How the results depend on the processing

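Id3 kept its negative sign in all 9 other settings and passed in 7 of them, with adjusted p-values from 0.000268 (after a filter at a mean level of 50) to 0.0141 (Bonferroni), among them 0.00229 after division by the inflation and 0.000998 after the length trend was taken out. The count of members called lower was 0 when a log2 change of 1 or more in size was required and 0 by the authors' own call, both because the value of -0.97 lies under the size asked for. No member was called higher in these settings. By the authors' own call, which uses the unadjusted p, 5 genes of the pathway and partner lists were called (Bmp2, Dlx5 and Heyl up, Bmper and Nbl1 down), and 0 in the other settings. Filters at mean levels of 50 and 500 leave 7 and 5 of the 8 members. Over all genes, calls numbered 107 at an adjusted p under 0.01, 117 with the size threshold, 103 after the filter at 500, 119 after division by the inflation, 55 with Bonferroni and 466 by the authors' call, against 181. No paired analysis was possible because the deposited table carries no values per library, and leaving out each library was not run for the same reason. Precision is limited most for Id4, Id1 and Smad6.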

Other observations

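None of the genes around Id3 was called with it. Within 500 kb on either side on chromosome 4, the authors' deposited table lists 22 other genes, with a median log2 fold change of -0.11. By DESeq2, 0 of the 22 had an adjusted p under 0.05 and 2 an unadjusted p under 0.05. Among all genes the shares were 1.08 and 9.07 percent. Counts from 22 genes lie near these shares and set the region apart in no way. The nearest listed neighbours, chosen after their values were seen, are the ribosomal protein gene Rpl11 (0.38 ± 0.23 SE in the authors' deposited table) and the cell cycle transcription factor gene E2f2 (-0.11 ± 0.33). The 2 with an unadjusted p under 0.05 were Pnrc2, a nuclear receptor coactivator gene (-0.44 ± 0.20 in the authors' deposited table, adjusted p = 0.452), and the cannabinoid receptor gene Cnr2 (1.85 ± 0.83 at 16.4 normalized counts, adjusted p = 0.439).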
